A study of Mus musculus with 2 samples.

Results

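Among 30413 nuclei of mouse brain, 428 were taken as hippocampal pyramidal-type neurons by their raw transcript counts. They were chosen by measured UMIs. A nucleus was a member when it had 300 to 7000 detected genes and at least 2000 unique molecular identifiers (UMIs, each a counted transcript), at least 3 UMIs of 4921539H07Rik and Gm2115 together, and at least 2 UMIs of Slc17a7, the vesicular glutamate transporter of forebrain excitatory neurons. It also had at most 3 UMIs of Prox1, which marks dentate granule cells, at most 1 of Rspo2, at most 7 of Rorb, a cortical layer gene, at most 2 of the inhibitory enzymes Gad1 and Gad2, and at most 5 of Mobp and St18, which are oligodendrocyte genes. The rule therefore used the expression of these genes, and their levels in the members are given as a description only. By this rule 232 of 12204 nuclei of the Normal library and 196 of 18209 nuclei of the SAH library were members.

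The nuclei came from an experiment on subarachnoid haemorrhage (SAH), bleeding into the space around the brain. The SAH library held nuclei of 3 male mice of 6 to 8 weeks taken 12 hours after endovascular perforation, in which a filament punctures an artery at the base of the brain, and the Normal library held nuclei of 3 male mice of the same ages labelled normal. The methods of the study describe sham-operated controls, which had the operation without the puncture, and older mice, so whether the Normal mice were operated on is not settled here. The hemisphere on the side of the perforation was collected, the tissue of the 3 mice of a group was pooled, and 1 droplet single-nucleus RNA library was made per group. The mice can therefore not be told apart, there is 1 library per group, and no comparison of SAH with Normal below has a replicate check or a test. The intervals given are exact 95% intervals and cover counting error only, and a difference between groups cannot be told apart from a difference between libraries or between pools of mice.

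The hippocampus holds a row of pyramidal fields, named CA1, CA2 and CA3, beside the granule cells of the dentate gyrus. CA3 pyramidal neurons receive the mossy fibres of the granule cells and project to CA1, which is the main output to the subiculum and cortex. CA1 neurons are known for their sensitivity to loss of blood flow, and for plasticity that depends on glutamate receptors and on genes switched on by neuronal activity.

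The members were deeply read. Their median UMI count was 15924 (range 4152 to 53906) in the Normal library and 18782.5 (7406 to 51104) in the SAH library, against 8882 and 9724 in all nuclei that passed the limits on genes and UMIs. Mitochondrial transcripts made up 0.0457% of the members' UMIs in the Normal and 0.0417% in the SAH library. The nuclear RNA Malat1 made up 7.02% and 4.54%, so this share was lower in the SAH library. Between the libraries 78 cell barcodes were shared over all nuclei, and 0 among the members.

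Of the nuclei that passed the limits on genes and UMIs, members were 2.31% (exact 95% binomial interval 2.03 to 2.63) in the Normal library and 1.28% (1.11 to 1.47) in the SAH library. Of nuclei with at least 2 Slc17a7 UMIs they were 6.82% (5.99 to 7.71) of 3404 and 5.62% (4.88 to 6.43) of 3490. The shares thus lay closer among excitatory nuclei than among all nuclei, and how the tissue was cut and dissociated can set either share. The rule is also sensitive to Slc17a7 itself. Slc17a7 stood at 273 counts per 1000000 UMIs (CPM) in the Normal and 174 CPM in the SAH members, and at 305 and 201 CPM in the other Slc17a7 nuclei. In the SAH library 128 nuclei failed the rule only by too few Slc17a7 UMIs, 67 of them by 1 UMI, against 44 and 27 in the Normal library. At the limit on 4921539H07Rik and Gm2115, 55 Normal and 67 SAH members had exactly 3 UMIs of the pair, and 123 and 149 nuclei that met every other condition had 1 UMI fewer.

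The regional identity was examined by clustering the members of both libraries without the genes of the rule and without the lists of response genes described further on. Of 8 clusters, 4 held 3 or more markers of a CA field and more of that field than of any other list, and were called CA1-like (2 clusters), CA2-like and CA3-like. They held 263 of the 428 members. The other 165 members, 73 Normal and 92 SAH, fell into 4 clusters that had no such CA profile and instead held 3 to 5 markers of cortical layers each. Some markers of other hippocampal fields stood out there too, 1 to 3 of the dentate list in each of the 4, Fn1 and Slc17a6 of the subiculum list in one and Ntf3 and Necab2 of the CA2 list in another. The data thus did not bear out a CA pyramidal identity for these nuclei, which are called non-CA members here. Their hold on the rule was weaker, with a median of 3 to 4 UMIs of 4921539H07Rik and Gm2115 per cluster, against 10 and 12 in the CA1-like clusters, 9 in the CA2-like and 5 in the CA3-like cluster.

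**Figure D1:**
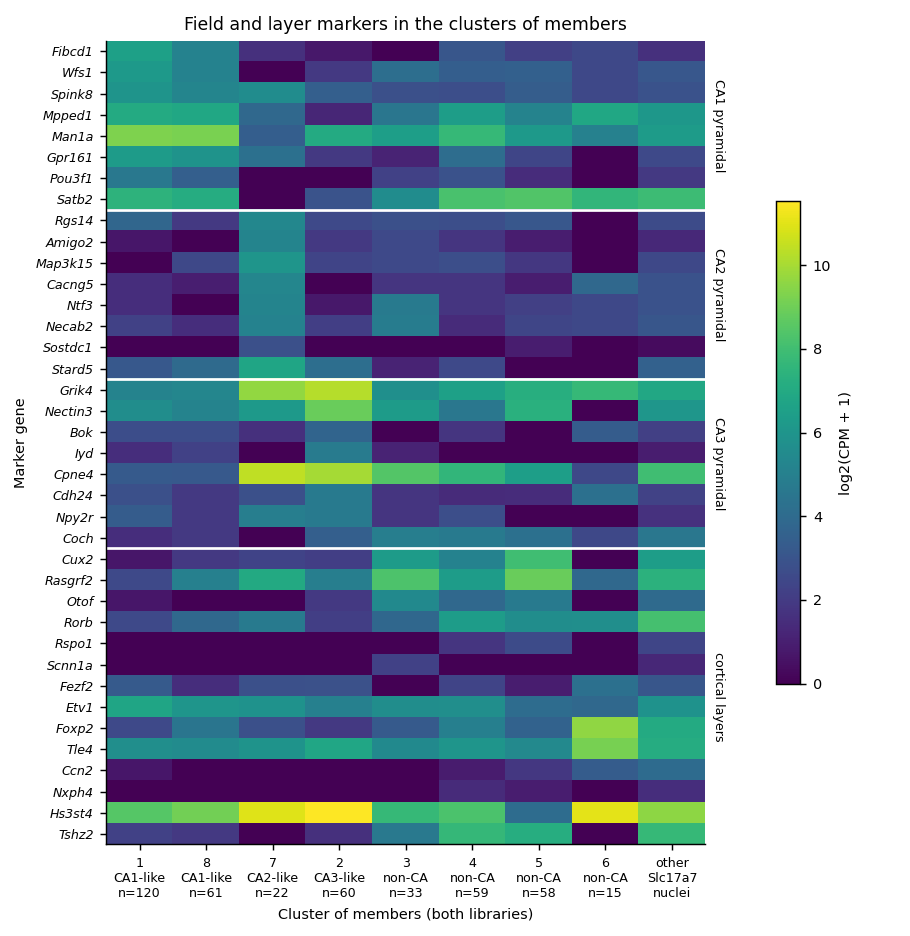
Heat map of log2(CPM + 1) for marker genes of CA1, CA2, CA3 and cortical layers (vertical axis) in the 8 clusters of members and in the other Slc17a7 nuclei (horizontal axis), both libraries together. Most CA1 markers are high in clusters 1 and 8, most CA2 markers in cluster 7 and most CA3 markers in cluster 2. Several cortical layer markers are high in clusters 3, 4, 5 and 6, but Hs3st4 is highest in cluster 2 and Etv1 in cluster 1.

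The CA1-like nuclei, 119 Normal and 62 SAH, carried Fibcd1, a membrane protein used as a CA1 marker, at 89.8 CPM (75.8 to 106) in the Normal and 38.6 CPM (27.7 to 52.4) in the SAH library, against 1.35 and 0 CPM in the CA3-like nuclei. Man1a, a mannosidase of the Golgi, was at 633 and 593 CPM. Ror1, a receptor tyrosine kinase that was not among the markers, was at 367 and 266 CPM in the CA1-like and at 12.1 and 36.0 CPM in the CA3-like nuclei. Of the CA1-like nuclei, 118 of 119 and 62 of 62 had more UMIs of the CA1 than of the CA3 marker list. The clusters were named from these lists, so this is a description and no check of the name. Of the non-CA members 37 of 73 and 53 of 92 also had more UMIs of the CA1 list. Prox1 had 0 UMIs in them.

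The CA3-like nuclei, 30 in each library, carried Grik4, a kainate receptor subunit of CA3 neurons, at 1211 CPM in the Normal and 1193 CPM in the SAH library, against 33.0 and 41.5 CPM in the CA1-like nuclei. Cpne4 was at 913 and 1089 CPM and the adhesion protein Nectin3 at 530 and 423 CPM. Not every CA3 marker was highest here. With both libraries together Cpne4 was at 1000 CPM, against 1377 CPM in the CA2-like cluster and 252 CPM in the other Slc17a7 nuclei. Npy2r was at 25.3 CPM against 29.9 CPM in the CA2-like cluster, and Coch at 10.3 CPM against up to 29.3 CPM in the non-CA clusters. All 30 nuclei of either library had more UMIs of the CA3 than of the CA1 list, which also served to name the cluster. The CA2-like cluster, 10 Normal and 12 SAH nuclei, was marked by Stard5 at 183 and 70.6 CPM, Rgs14, which limits plasticity in CA2, at 57.1 and 30.7 CPM and Amigo2 at 45.7 and 30.7 CPM. With 12 nuclei at most, its genes are not described singly in the comparison of the libraries.

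The non-CA members carried Cux2, a transcription factor of upper cortical layers, at 119 and 115 CPM and Rasgrf2 at 226 and 300 CPM, with Tshz2 at 90.3 and 158 CPM and Foxp2, a factor of deep layers, at 57.0 and 75.8 CPM. Cux2 was at 0.611 and 2.83 CPM in the CA1-like nuclei. Not every gene of the cortical list went this way. With both libraries together Hs3st4 was at 2949 CPM in the CA3-like and 2008 CPM in the CA2-like cluster, and at 15.7 to 2119 CPM in the non-CA clusters. Etv1 was highest in a CA1-like cluster, at 107 CPM. In the other Slc17a7 nuclei Tshz2 was at 208.5 CPM and Foxp2 at 132 CPM. No new name is given to these nuclei.

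The genes given with the rule followed the fields unequally. 4921539H07Rik, a long intergenic RNA gene (chr3:58117053-58167616, + strand, GRCm38), was at 703 and 632 CPM in the CA1-like, 233 and 315 CPM in the CA3-like and 177 and 191 CPM in the non-CA members, against 25.3 and 24.8 CPM in the other Slc17a7 nuclei. Gm2115 (chr7:84528954-84583531, + strand) was at 260 and 176 CPM in the CA1-like and at 25.6 and 18.0 CPM in the CA3-like nuclei. It was at 211 and 224 CPM in the CA2-like and 35.9 and 20.6 CPM in the non-CA members. 1700007F19Rik (chr3:58141707-58163807, - strand) lies inside the span of 4921539H07Rik on the opposite strand, and since the sources used here do not state that counting used strand, its reads may not be separate. Rnf182, a ubiquitin ligase, was highest in the CA3-like nuclei, at 289 and 306 CPM, against 94.0 and 85.8 CPM in the CA1-like and 17.9 and 23.8 CPM in the non-CA members. Shisa6, which anchors AMPA receptors at the synapse, was at 923 and 947 CPM in the CA1-like and 124 and 101 CPM in the non-CA members.

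Outside the rule, Zbtb20 was higher in the CA-like nuclei than in the non-CA members. Zbtb20 is a zinc finger repressor needed for the hippocampal pyramidal fate. Its level in Normal and SAH was 2114 and 2462 CPM in the CA1-like, 4672 and 5282 CPM in the CA2-like and 3946 and 4402 CPM in the CA3-like nuclei. It was 300 and 172 CPM in the non-CA members and 1582 and 1782 CPM in 121 nuclei with 4 or more Prox1 UMIs. All 3 CA-like fields were thus above the non-CA members in both libraries, while the Prox1 nuclei lay nearer to the CA1-like nuclei. Zbtb20 was not kept out of the clustering, so its level is a description. Neurod6, a factor of pyramidal neurons, was at 77.6 and 49.0 CPM in the CA1-like, 124 and 73.5 CPM in the CA3-like and 17.9 and 10.8 CPM in the non-CA members.

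**Figure D2:**
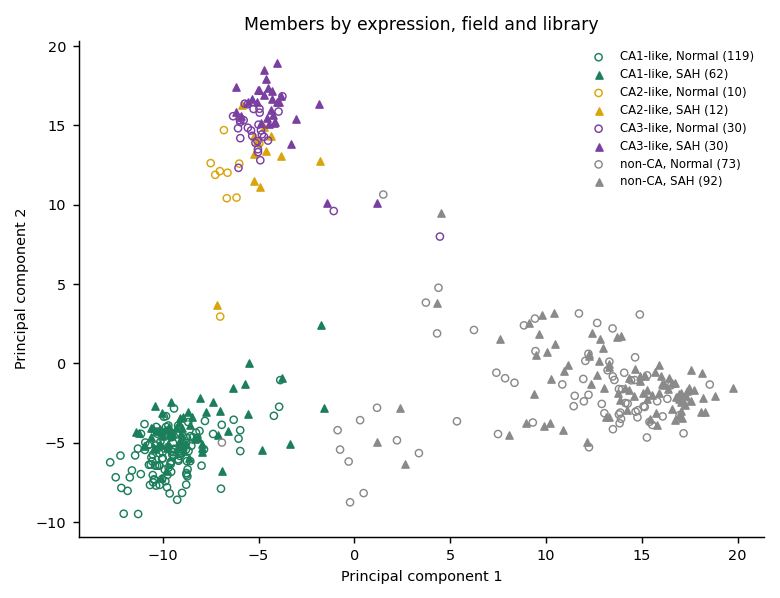
The 428 members on the first and second principal components of their expression, each point a nucleus (open circles Normal, filled triangles SAH, colours the CA1-like, CA2-like, CA3-like and non-CA clusters). Most non-CA members lie apart on the right, and within each field the points of the libraries overlap on these axes.

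The libraries stood apart within the fields when more components were used. CA1-like nuclei fell into a cluster of 118 Normal and 2 SAH nuclei and a cluster of 1 Normal and 60 SAH nuclei, whereas the CA3-like cluster held 30 of each. Among the 10 nearest CA1-like nuclei of a Normal CA1-like nucleus, 98.2% were of its own library, against 65.6% if the libraries were mixed evenly, and for SAH nuclei the values were 91.6% and 33.9%. In the CA3-like nuclei they were 89.7% for Normal and 85.0% for SAH, against 49.2%. A cluster of 1 library may be that library and not a type, so both CA1-like clusters were pooled below.

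The makeup of the members differed between the libraries. CA1-like nuclei were 51.3% (44.7 to 57.9) of the Normal and 31.6% (25.2 to 38.6) of the SAH members, and non-CA members 31.5% (25.5 to 37.9) and 46.9% (39.8 to 54.2). CA3-like nuclei were 12.9% and 15.3%. Of all passing nuclei, CA1-like were 1.19% (0.983 to 1.42) in the Normal and 0.406% (0.311 to 0.520) in the SAH library, CA3-like 0.299% and 0.196%, and non-CA 0.727% and 0.602%. With the Slc17a7 minimum lowered to 1 UMI, 140 Normal and 91 SAH nuclei were CA1-like, 1.40% and 0.595% of passing nuclei, so the ratio of the shares was smaller while their difference in percentage points was not. Fewer nuclei of a type and less of the transcripts that define it cannot be told apart here, nor can a difference in the tissue taken. The members as a whole thus mix fields in different shares, and the comparisons of expression are given within the fields as well.

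For each gene the UMIs of a set of nuclei were summed per library and given as CPM. A gene is said to have risen or fallen where it had at least 100 UMIs over both libraries and its SAH to Normal ratio was at least 2 in either direction, a log2 ratio past 1 or -1. Over all members 174 of 7304 genes rose (2.38%) and 290 fell (3.97%), with a median log2 ratio of -0.14. In the CA1-like nuclei 66 of 3723 genes rose (1.77%) and 126 fell (3.38%), with a median of -0.06. In the CA3-like nuclei 46 of 2100 genes rose (2.19%) and 50 fell (2.38%), with a median of -0.03. In the non-CA members 89 of 4433 genes rose (2.01%) and 109 fell (2.46%), and in 5558 other Slc17a7 nuclei 822 of 14784 rose (5.56%) and 675 fell (4.57%). The CA2-like nuclei had 19 rises (2.77%) and 8 falls (1.17%) of 685 genes, nuclei with 4 or more Prox1 UMIs 67 (1.85%) and 52 (1.43%) of 3625, and 787 Slc17a7 nuclei with 2 or more Rspo2 UMIs 268 (2.7%) and 315 (3.18%) of 9912. These percentages are the background for the counts of list genes below. With the sums thinned to 721490 UMIs per library, though not to equal numbers of nuclei, the genes past the ratio were 4.43% in the CA1-like, 4.71% in the CA3-like and 3.96% in the non-CA nuclei.

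The direction followed gene length. Of 1479 genes spanning under 20 kb in the genome, 28 rose and 204 fell over all members, with a median log2 ratio of -0.46. Of 3909 genes of 20 to 100 kb, 71 rose and 73 fell, with a median of -0.17. Of 1914 genes over 100 kb, 75 rose and 13 fell, with a median of 0.08. In the CA1-like nuclei the 335 short genes had a median of -0.49 with 71 falls and 7 rises. The 1454 long genes had a median of 0.10 there with 2 falls and 25 rises. The same ordering stood in the other Slc17a7 nuclei, where the short genes had a median of -0.34. Centred on the 500 genes nearest in length, 271 genes rose and 70 fell over all members in place of 174 and 290. The part of RNA handling in this ordering was not tested.

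Cck, the neuropeptide cholecystokinin, fell in the CA1-like nuclei. It went from 190 CPM in the Normal to 56.6 CPM in the SAH library in the CA1-like nuclei, a log2 ratio of -1.75 (-2.17 to -1.34). The CA3-like nuclei went from 85.0 to 20.8 CPM, -2.03 (-2.95 to -1.20), on 63 and 15 UMIs, too few to count it as fallen there. It was seen in 108 of 119 Normal and 37 of 62 SAH CA1-like nuclei although the SAH nuclei were read more deeply. The difference was as large in the other Slc17a7 nuclei, from 107 to 29.3 CPM (-1.87), and was thus not particular to the members.

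Ptprn, a protein of dense-core vesicles, went from 300 to 81.1 CPM in the CA1-like nuclei, -1.89 (-2.23 to -1.55), and from 232 to 105 CPM in the CA3-like nuclei, -1.14 (-1.55 to -0.74). Atp6v0b, a subunit of the vacuolar proton pump that acidifies vesicles, went from 254 to 83.0 CPM (-1.61) and from 295 to 73.5 CPM (-2.01). Atp6v0c, another subunit of the pump, went from 291 to 97.1 CPM (-1.58) and from 271 to 111 CPM (-1.29). All 3 genes were lower by 2-fold or more in the SAH library in both fields, though Ptprn was at -0.88 in the CA3-like nuclei when centred on genes of like length. In the other Slc17a7 nuclei Ptprn had a log2 ratio of -1.39, Atp6v0b of -1.38 and Atp6v0c of -1.04. Vgf, a neuropeptide precursor, fell from 36.9 to 10.4 CPM over all members (-1.83), and was at -0.22 when each nucleus was thinned to 2000 UMIs.

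Rnf112, a ubiquitin ligase of the brain, was among the largest falls in both fields, from 128 to 36.8 CPM in the CA1-like (-1.80) and from 264 to 66.5 CPM in the CA3-like nuclei, -1.99 (-2.48 to -1.53). Aplp1, of the amyloid precursor family, went from 206 to 64.1 CPM in the CA1-like nuclei (-1.68) and from 117 to 58.2 CPM in the CA3-like (-1.01), where it passed the limit in 3 of 9 alternative settings and turned to 0.26 when thinned to 2000 UMIs per nucleus. The kinase gene Mast3 went from 195 to 62.2 CPM (-1.65) and from 177 to 70.7 CPM (-1.32), and the adhesion receptor Adgrb2 from 145 to 48.1 CPM (-1.59) in the CA1-like nuclei. In the other Slc17a7 nuclei Rnf112, Mast3 and Adgrb2 fell too, at -1.56, -1.30 and -1.12, while Aplp1 was at -0.86. Dtx3 fell from 66.0 to 18.9 CPM in the CA1-like nuclei (-1.81) and was at 62.0 and 15.2 CPM in the CA3-like (-2.02, on 46 and 11 UMIs). Cst3, a protease inhibitor, fell from 57.4 to 14.1 CPM in the CA1-like nuclei (-2.02). Ccn3 fell from 40.1 to 12.4 CPM (-1.69) and Dalrd3 from 41.3 to 10.1 CPM (-2.03) over all members.

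**Figure D3:**
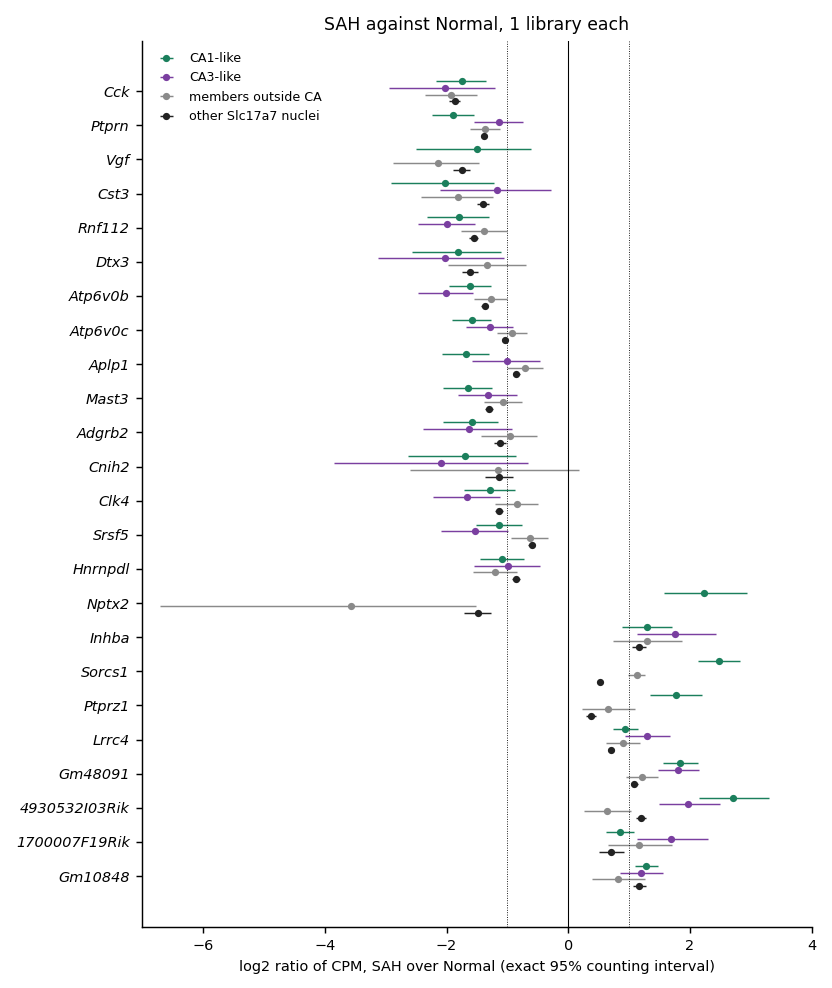
Log2 ratio of SAH over Normal (horizontal axis) with exact 95% counting intervals for 24 named genes (vertical axis) in CA1-like, CA3-like, non-CA and other Slc17a7 nuclei, with dotted lines at -1 and 1 and points only where a gene had 20 or more UMIs. Cck, Ptprn and Rnf112 lie below -1 in every set of nuclei shown and Inhba above 1.

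Genes of RNA binding and splicing that are known to respond to temperature were lower in the SAH library in the CA1-like and CA3-like nuclei. Of 6 on the list, 4 had 100 UMIs in the CA1-like nuclei, and 3 fell, Hnrnpdl, Clk4 and Srsf5, where 3.38% of all genes fell, with a median log2 ratio of -1.11 against -0.06 for all genes. Clk4, a kinase of splicing factors, went from 140 to 57.5 CPM in the CA1-like (-1.28) and from 162 to 51.3 CPM in the CA3-like nuclei (-1.66). Srsf5, a splicing factor, went from 161 to 73.5 CPM (-1.13) and from 156 to 54.0 CPM (-1.53). Of 4 measured in the CA3-like nuclei 2 fell and the median was -1.26. The list was lower outside these fields too. In the non-CA members 1 of 5 fell, Hnrnpdl, with a median of -0.64. In the other Slc17a7 nuclei 1 of 6 fell, Clk4, with a median of -0.56. The genes of the list are short, and centred on genes of like length the median over all members moved from -0.96 to -0.37. In the CA1-like nuclei that centring put Hnrnpdl at -0.65, Clk4 at -0.98 and Srsf5 at -0.70, so all 3 were then inside the limit, and Clk4 turned to 0.58 in the CA3-like nuclei when each nucleus was thinned to 2000 UMIs. The splicing factor Srsf7, not on the list, fell from 143 to 41.5 CPM in the CA1-like nuclei (-1.78).

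Inhba, which encodes the subunit of activin A and is induced by neuronal activity, rose in both fields. Its level in the CA1-like nuclei went from 51.3 to 125 CPM, 1.29 (0.88 to 1.70), on 84 and 133 UMIs. The CA3-like nuclei went from 37.8 to 128 CPM, 1.76 (1.13 to 2.42), on 28 and 92 UMIs. It was counted in 59 of 119 Normal and 51 of 62 SAH CA1-like nuclei, with at most 4 and 9 UMIs in a nucleus, so the rise was spread over many nuclei. It rose as well in the non-CA members, from 23.7 to 58.0 CPM (1.29), and in the other Slc17a7 nuclei, from 24.2 to 54.0 CPM (1.16).

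The list that holds Inhba moved unequally. Of 22 genes switched on late after activity, 11 had 100 UMIs over all members, of which Inhba rose and Vgf fell, with a median log2 ratio of -0.38. In the CA1-like nuclei 2 of 6, Nptx2 and Inhba, rose and 0 fell, with a median of 0.61. That median and the rise of Nptx2 rest on a few nuclei described further on. It was 0.11 without the 4 nuclei with heat-shock transcripts, which held 39 of 81 Bdnf and 54 of 102 Scg2 UMIs of the SAH nuclei, and -0.41 in the 52 nuclei that stayed CA1-like in finer clusters. Of 3 genes measured in the CA3-like nuclei 1, Inhba, rose, with a median of 0.75, and in the other Slc17a7 nuclei 1 of 21, Inhba, rose and 8 fell, with a median of -0.80. In the non-CA members 1 of 7, Inhba, rose and 4 fell, Scg2, Bdnf, Vgf and Pcsk1, with a median of -1.05. Bdnf, a neurotrophin, went there from 54.5 to 9.75 CPM (-2.48), on 85 and 18 UMIs. Homer1, a scaffold of the synapse with an activity-dependent short form, went from 319 to 305 CPM in the CA1-like nuclei (-0.06, and -0.30 without the 4 nuclei) and from 470 to 310 CPM in the non-CA members (-0.60). Sorcs3, a sorting receptor of the synapse, went from 780 to 878 CPM in the CA1-like nuclei (0.17).

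The rapid immediate early genes, which respond within minutes to activity, were scarce. Of 18, 1 reached 100 UMIs over all members, Nr4a1, at 33.5 CPM in the Normal and 18.0 CPM in the SAH library (-0.90). The list summed to 118 CPM in the Normal and 59.9 CPM in the SAH members (-0.98). The sum was 122 and 101 CPM (-0.28) in the CA1-like nuclei. Of the 107 SAH UMIs behind it 49 were in 4 nuclei with heat-shock transcripts, described further on, and in the other 58 SAH nuclei the sum was 58.3 CPM, -1.07 (-1.51 to -0.64). It was in the non-CA members 145 and 51.5 CPM (-1.49), and in the other Slc17a7 nuclei 168 and 57.6 CPM (-1.55), where 10 of 12 genes fell. Whether the fields differ in this was not tested.

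Among genes of synaptic transmission the counts stood near the background of 2.38% risen and 3.97% fallen. Of 24 genes of ionotropic glutamate receptors and their auxiliary subunits, 22 were measured, 0 rose and 1 fell, with a median log2 ratio of 0.01. Grin2a, an NMDA receptor subunit, was at 3127 and 3191 CPM (0.03), Gria1, an AMPA receptor subunit, at 2432 and 2430 CPM, and Gria2, the subunit that keeps AMPA receptors closed to calcium, at 3004 and 2388 CPM (-0.33). The gene that fell (-1.77, and -0.86 when thinned) was Cnih2, which escorts AMPA receptors and is abundant in hippocampal pyramidal cells. It went from 42.8 to 13.2 CPM in the CA1-like nuclei, -1.70 (-2.64 to -0.85), on 70 and 14 UMIs, and from 29.7 to 6.93 CPM in the CA3-like nuclei, -2.10 (-3.85 to -0.66). In the other Slc17a7 nuclei it went from 12.6 to 5.75 CPM (-1.14).

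Of the other channel and receptor lists, 0 of 5 metabotropic glutamate receptors, 0 of 11 GABA-A receptor subunits and 0 of 21 calcium and sodium channel genes rose or fell over all members, with medians of 0.28, 0.25 and -0.24. Of 34 potassium and HCN channel genes Dpp10 rose and Hcn2 fell, with a median of 0.05. Dpp10, an auxiliary subunit of A-type potassium channels, was at 5985 and 12350 CPM in the non-CA members and at 126 and 523 CPM in the CA1-like nuclei, so its rise over all members, from 2344 to 5951 CPM (1.34), also carries the larger share of non-CA members in the SAH library. In the CA1-like nuclei the log2 ratio was 2.06, 1.55 without the top nucleus of each library and -0.057 with the highest doublet scores removed. Hcn2, a pacemaker channel, went from 21.6 to 7.84 CPM (-1.46, and -0.76 when thinned). Cacnb2, a calcium channel subunit, was at 2637 and 3642 CPM in the CA1-like nuclei (0.47).

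Of 20 genes of postsynaptic kinases and scaffolds and 21 of synaptic adhesion, 0 rose or fell over all members, with medians of -0.23 and 0.00. Within the fields the adhesion gene Lrrtm4 went from 231 to 588 CPM in the CA1-like nuclei (1.35), and was at 0.47 with the highest doublet scores removed. Adgrl1, an adhesion receptor, fell there from 89.8 to 42.4 CPM (-1.08, but -0.98 in the finer CA1-like clusters and -0.89 when centred on genes of like length), and Tenm1 in the CA3-like nuclei from 115 to 49.9 CPM (-1.20), which turned to 0.47 with 5 UMIs of the rule's genes required. Camk2a, the kinase of synaptic plasticity, was at 1044 and 870 CPM (-0.26). In the CA3-like nuclei Nrgn, which binds calmodulin in dendrites, fell from 109 to 54.1 CPM (-1.01), as did Shank3 (-1.04), and each passed the limit in 6 of 9 alternative settings. Of 8 glucocorticoid receptor and target genes 1 fell over all members, Per1, from 21.6 to 9.10 CPM (-1.25, and -0.63 when thinned), and the mineralocorticoid receptor Nr3c2 was at 971 and 789 CPM (-0.30). Fkbp5, a chaperone of steroid receptors, was at 70.8 and 83.9 CPM in the CA1-like nuclei (0.24, -0.17 to 0.65) and rose in the non-CA members from 34.0 to 97.0 CPM, 1.51 (1.06 to 1.98), as it did in the other Slc17a7 nuclei, from 42.6 to 96.0 CPM, 1.17 (1.09 to 1.26). Whether Fkbp5 responds differently in these nuclei was not tested.

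**Figure D4:**
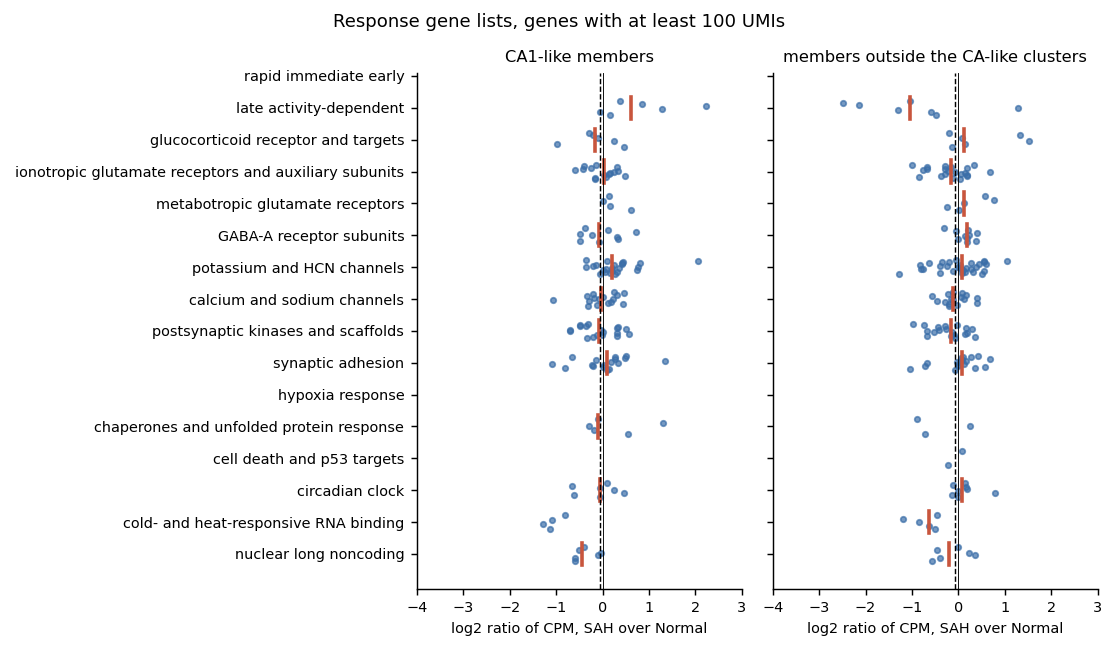
Log2 ratio of SAH over Normal (horizontal axis) for the genes of the response lists (vertical axis) with 100 or more UMIs, in the CA1-like and in the non-CA members. Points are genes, a red bar is the list's median where 5 or more genes were measured, and the dashed line is the median of all genes, which most receptor and channel lists surround.

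Hypoxia and cell death genes were too scarce to describe, with 1 of 13 and 3 of 11 at 100 UMIs over all members and 0 risen or fallen. Of 10 circadian clock genes 1 fell, Per1, and of 6 nuclear long noncoding RNAs 0 rose or fell. Of 6 measured chaperone and unfolded protein genes 1 fell over all members, Xbp1, a factor of the unfolded protein response, from 21.1 to 9.10 CPM (-1.22), and at -0.63 when centred on genes of like length. Hspa5, the chaperone of the endoplasmic reticulum, had a log2 ratio of -0.11 in the CA1-like nuclei and of -0.69 (-1.19 to -0.21) without the same 4 nuclei, which held 30 of its 80 SAH UMIs. Of 5 genes of this list measured in the CA1-like nuclei 1 rose, Hsph1 (1.29). The list summed there to 343 and 527 CPM (0.62). Without the 4 nuclei, which were picked by 2 genes of the list, Hsph1 was at -0.34 and the sum at 230 CPM, -0.57 (-0.80 to -0.35).

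The markers that define the CA1-like nuclei were lower in the SAH library. All 7 of the 8 CA1 markers that could be measured had a negative log2 ratio in the CA1-like nuclei, with a median of -0.39 against -0.06 for all genes. Fibcd1 fell (-1.22, -1.75 to -0.71), as did Wfs1, a protein of the endoplasmic reticulum, from 73.9 to 33.0 CPM (-1.16). In the 52 SAH nuclei that stayed CA1-like in finer clusters they were at -0.98 and -0.89, inside the limit. Fibcd1 also fell in the other Slc17a7 nuclei, from 3.01 to 1.24 CPM (-1.28). Fibcd1 was counted in 83 of 119 Normal and 27 of 62 SAH CA1-like nuclei. In the CA3-like nuclei the 3 measured CA3 markers had a median of -0.02. These genes took part in the clustering and in naming the clusters, so their levels are a description.

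Of the 66 genes that rose in the CA1-like nuclei 40 (60.6%) are annotated as other than protein-coding, against 5.56% of the genes tested. In the CA3-like nuclei they were 28 of 46 (60.9%, against 5.86%). Gm48091 went from 89.8 to 321 CPM in the CA1-like (1.84) and from 131 to 459 CPM in the CA3-like nuclei (1.81), and Gm5441 from 56.8 to 164 CPM in the CA1-like nuclei (1.53). Gm10848 went from 225 to 549 CPM in the CA1-like (1.28) and from 138 to 316 CPM in the CA3-like nuclei (1.20). All 3 are annotated antisense to another gene, and without stated strand their reads cannot be told apart from those of the partner. 1700007F19Rik went from 45.9 to 148 CPM in the CA3-like nuclei (1.69) and from 183 to 330 CPM in the CA1-like (0.85). Over all members Gm15680 went from 46.9 to 174 CPM (1.89), AY036118 from 54.0 to 198 CPM (1.88) and Muc15, a membrane mucin, from 15.1 to 49.8 CPM (1.73).

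Of the genes that rose, 26 in the CA1-like and 18 in the CA3-like nuclei were protein-coding, Inhba among them. Cdh18, a cadherin, went from 92.2 to 257 CPM in the CA1-like nuclei (1.48), and Ptprz1, a receptor phosphatase, from 42.1 to 143 CPM, 1.77 (1.35 to 2.20). In the CA3-like nuclei the synaptic adhesion gene Lrrc4 went from 117 to 288 CPM (1.30), Maml2, a coactivator of Notch signalling, from 94.4 to 230 CPM (1.28) and Cep112 from 125 to 302 CPM (1.27). Lrrc4 was at 211 and 404 CPM in the CA1-like nuclei (0.94).

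A small group of SAH CA1-like nuclei carried several of the largest rises. Clustered more finely, at a resolution of 1 in place of 0.5, 52 of the 62 stayed in CA1-like clusters and 10 joined an unnamed cluster of 8 Normal and 17 SAH members with no CA1 marker above its limit, in which 0 of the Normal CA1-like nuclei fell. These 10 nuclei held 69 of the 79 Nptx2 UMIs, 304 of 341 of Sorcs1, 105 of 122 of Hsph1 and 135 of 152 of Mir670hg of the SAH CA1-like nuclei. Fibcd1 was at 9.69 CPM and Ror1 at 77.5 CPM in them, against 45.6 and 311 CPM, while Man1a was at 935 and 510 CPM. Their place among CA1 neurons is therefore uncertain.

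Several rises rested on these nuclei. Nptx2, a pentraxin that gathers AMPA receptors after activity, went from 15.9 to 74.5 CPM over all CA1-like nuclei, 2.23 (1.57 to 2.93), and was at 11.7 CPM in the other 52 SAH nuclei, -0.44 (-1.66 to 0.66). Sorcs1, a sorting receptor, went from 58.0 to 321 CPM (2.47) and was at 43.3 CPM without them (-0.42). Mir670hg, the host transcript of a microRNA, went from 4.89 to 143 CPM and was at 19.9 CPM without them, 2.03 (0.74 to 3.45), on 17 UMIs. Inhba, by contrast, was at 139 CPM in the other 52 nuclei (1.44), Ptprz1 at 172 CPM (2.03) and Cdh18 at 191 CPM (1.05). Cck stood at 64.4 CPM (-1.56), Ptprn at 76.1 CPM (-1.98) and Fibcd1 at 45.6 CPM (-0.98).

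Within the group of 10, 4 nuclei carried the inducible heat-shock gene pair Hspa1a and Hspa1b at 3 or more UMIs. They were 4 of 62 SAH CA1-like nuclei, 6.45% (1.79 to 15.7), and were picked out after these values were seen. The near-identical genes lie near each other on chromosome 17 and how reads were split between them is uncertain, so their UMIs are summed. By the rule 3 of the 4 stood exactly at the limit of 3 UMIs of 4921539H07Rik and Gm2115, the other had 6, and the median of the other 58 SAH CA1-like nuclei was 12. The 4 nuclei held 28, 38, 5 and 45 UMIs of the heat-shock pair, 116 of the 119 in the 62 nuclei. In the Normal library 0 of 119 CA1-like nuclei reached 3 UMIs, which by a limit of 3 nuclei allows a share of up to 2.52% and by the exact interval one of up to 3.05%. None of the CA2-like, CA3-like or non-CA members of either library did, with 0 of 30 CA3-like nuclei in each library allowing up to 10% and 11.6% by the same measures. Over all passing nuclei 42 of 15287 in the SAH library (0.275%) and 0 of 10035 in the Normal library reached 3 UMIs. In the SAH library so did 3 of 431 Slc17a7 nuclei with 2 or more Rspo2 UMIs (0.696%, 0.144 to 2.02) and 2 of 2788 other Slc17a7 nuclei (0.0717%, 0.00869 to 0.259), whose median depth was 14324 UMIs against 15247.5 in the CA1-like nuclei.

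The 150 bases before the annotated start of these genes were searched for letters known from heat-shock promoters. They are printed for the pair and for 2 further heat-shock genes of the same nuclei, from RefSeq on GRCm38.p6 in the direction of each gene, and for Hsph1 from the first of its listed starts. Capitals mark the letters GAANNTTC or TTCNNGAA, inverted repeats of the unit read by heat-shock factors, which read the same on both strands. Hspa1a (chr17:34972157-34972306, - strand) and Hspa1b (chr17:34959239-34959388, - strand) differ at 1 of these 150 bases, Hspb1 is at chr5:135887769-135887918 (+ strand) and Hsph1 at chr5:149636337-149636486 (- strand).
Hspa1a: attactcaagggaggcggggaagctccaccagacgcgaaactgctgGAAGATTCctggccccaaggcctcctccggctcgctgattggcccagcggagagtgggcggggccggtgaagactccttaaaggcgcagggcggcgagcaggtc
Hspa1b: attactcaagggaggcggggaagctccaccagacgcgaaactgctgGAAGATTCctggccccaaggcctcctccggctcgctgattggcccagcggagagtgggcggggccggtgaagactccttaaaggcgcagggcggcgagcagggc
Hspb1: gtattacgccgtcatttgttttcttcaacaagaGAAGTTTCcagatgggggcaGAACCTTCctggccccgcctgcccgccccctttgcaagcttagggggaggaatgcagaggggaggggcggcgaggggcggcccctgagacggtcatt
Hsph1: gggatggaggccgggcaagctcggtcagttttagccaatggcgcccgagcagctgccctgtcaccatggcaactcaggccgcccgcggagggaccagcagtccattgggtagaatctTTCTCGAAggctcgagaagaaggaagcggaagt
The letters occur 1 time before Hspa1a and Hspa1b, 2 times before Hspb1 and 1 time before Hsph1. Of all 32851 windows of this length 7.73% hold them. Inhba and Hspa5 have 0, and Hspa5 was at 454 CPM in the 4 nuclei against 50.3 CPM in the other 58 SAH nuclei. The windows of Hsp90aa1, Hspa8 and Nptx2 were not analysed here. A match of letters is a description and does not show a bound site.

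Part of the stress and activity lists was high in the same 4 nuclei when their UMIs were summed. Against the other 58 SAH CA1-like nuclei, 9.5% of 16037 genes with a UMI had a ratio whose interval lay above 1 and 3.21% one below 1. Without the Hspa1 pair that chose the nuclei, it lay above 1 for 7 of 11 chaperone and unfolded protein genes, 9 of 20 late activity genes and 7 of 13 rapid ones, and below 1 for Inhba and Sorcs3. Of the same genes 3, 3 and 2 had 0 UMIs in the 4 nuclei, Xbp1 among them. So had 7639 of the 16037 genes, which could not lie above 1. Not every rise was shared by the 4 nuclei. Fos, Atf3 and Pcsk1 had 2 UMIs each, all in 1 nucleus. Npas4 had 5 UMIs in 2 nuclei, and 37 of 66 Homer1 UMIs were in 1 nucleus. Hsph1, Hsp90aa1, Nptx2, Scg2 and Arc had UMIs in all 4. Hsph1, a co-chaperone of the HSP70 family, was at 1287 CPM in them, 37.2 CPM in the other 58 SAH and 47.0 CPM in the Normal CA1-like nuclei. Hsp90aa1, the inducible HSP90, was at 697, 45.2 and 58.6 CPM and Hspb1, a small heat-shock protein, at 257.5, 3.02 and 0 CPM. Nptx2 was at 697 CPM against 33.2 and 15.9 CPM, with 7, 22, 8 and 9 UMIs in the 4 nuclei. Of the 33 Nptx2 UMIs of the other 58, 17 were in 1 nucleus with 2 UMIs of the Hspa1 pair, just under the limit, which also held 14 of their 37 Hsph1 UMIs. The granin Scg2 was at 818 CPM against 48.3 and 74.5 CPM. Of 39 Bdnf UMIs in these nuclei 32 were in 1 of them, and of 107 Mir670hg UMIs 91 were. Inhba had 1 UMI in the 4 nuclei, against 133 CPM in the other 58. They held 12190 to 21978 UMIs, within the range of the rest, with 1 UMI each of Fibcd1 and Wfs1 in all and 62 of Man1a. Malat1 was at 65520 CPM in them against 42140 CPM in the other 58 SAH nuclei, and at 66050 CPM in the Normal CA1-like nuclei. This was not particular to the 4 nuclei. Over all 10 nuclei of the unnamed finer cluster Malat1 was at 63894 CPM, against 38697 CPM in the 52 SAH nuclei that stayed CA1-like.

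**Figure D5:**
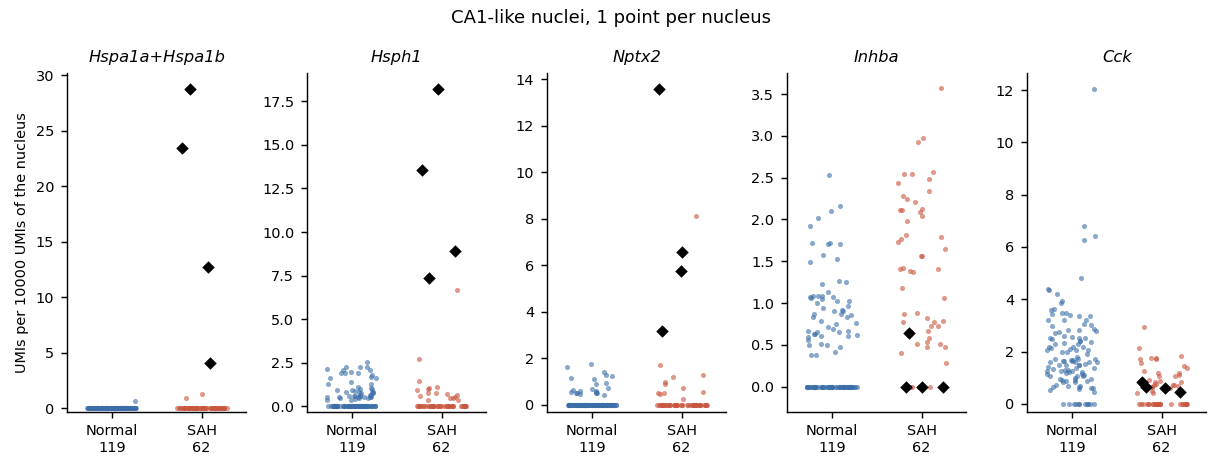
UMIs per 10000 of Hspa1a and Hspa1b together, Hsph1, Nptx2, Inhba and Cck (vertical axis) in each of 119 Normal and 62 SAH CA1-like nuclei (horizontal axis, 1 point per nucleus). The 4 SAH nuclei with 3 or more Hspa1a and Hspa1b UMIs, drawn as black diamonds, are also high in Hsph1 and Nptx2, while Inhba is higher and Cck lower across the SAH nuclei.

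Summed markers of other cell types were low in the members and moved between the libraries. The 10 oligodendrocyte markers summed to 152 CPM in the Normal and 79.4 CPM in the SAH members. The microglia markers summed to 86.3 and 106 CPM, led by P2ry12, the astrocyte markers to 13.1 and 9.36 CPM, the vascular markers to 6.32 and 2.02 CPM and the haemoglobin genes to 2.19 and 0.759 CPM. The inhibitory neuron markers summed to 41.1 and 85.2 CPM, led by Adarb2. With both libraries together Adarb2 was at 45.4 to 95.1 CPM in the non-CA clusters and 234 CPM in the other Slc17a7 nuclei. Slc32a1 was at most 3.49 CPM in any cluster. P2ry12 was at 60.0 CPM in the other Slc17a7 nuclei, while Csf1r was at 5.41 CPM. These 2 sums can therefore not be read as RNA of inhibitory neurons or microglia. The part of RNA of other cell types in the results above was not tested.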

How the data were processed

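Nuclei of the ipsilateral hemisphere were captured with the 10x Genomics 3' chemistry, and the authors counted UMIs per gene and nucleus against mm10 with intronic reads. The deposited values are raw counts, whole UMI numbers that were not normalized. The file header gives Cell Ranger 6.1.2 and the submitters' processing notes give 5.0.0. Totals were 114970719 UMIs for the Normal and 172604358 for the SAH library, and the number of UMIs of a gene sets the width of its interval.

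Members were chosen by the limits stated above and no doublets were removed. They were clustered with scanpy 1.11.5 (2000 variable genes, 20 principal components, 15 neighbours, Leiden resolution 0.5), and a cluster was named where 3 or more markers of a field with 10 or more UMIs stood at 3 times the median cluster. UMIs were summed per library. CPM have exact Poisson intervals and ratios exact conditional binomial intervals (SciPy 1.17.1), checked on simulated counts. Named genes were the 10 largest rises and falls with 200 or more UMIs, the members of the lists that passed the ratio, the 2 most abundant genes of a list, the genes of the rule and markers, and the 10 highest over other Slc17a7 nuclei, and the same rule was applied in the CA1-like and CA3-like nuclei after the clusters were seen. Gria1, Fkbp5 and the genes of the heat-shock nuclei were chosen after their values were seen. Gene spans are of GENCODE vM21. The members, gene lists and comparisons were chosen with earlier results of these data known. The alternatives were another minimum of the rule's genes, doublet scores (Scrublet), thinning to 2000 UMIs, other UMI limits and centrings, another resolution, and sets without single nuclei. The results of some genes are not reported here.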

Additional observations from a re-analysis of the deposited data

Results flagged for a closer look

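In 4 genes the SAH to Normal ratio passed 2 in opposite directions in sets of members or in members and other neurons. With 1 library per group these differences were not tested. Sdk1, an adhesion protein of synapses, had a log2 ratio of 1.57 in the CA1-like nuclei (38.5 to 114 CPM) and -1.03 in the non-CA members (188 to 92.1 CPM), and -0.18 in the other Slc17a7 nuclei. Adamtsl1 had 1.40 in the CA3-like nuclei (83.6 to 220 CPM) and -1.12 in the non-CA members (119 to 54.7 CPM), where 1 Normal nucleus held 71 of 186 UMIs and the ratio without the top nucleus of each library was -0.56. Ptgds, a prostaglandin synthase abundant in meninges and oligodendrocytes, had -1.89 in the CA1-like nuclei (139 to 37.7 CPM), where 1 Normal nucleus held 94 of 228 UMIs and the ratio was -1.27 without the top nuclei, and 1.12 in the other Slc17a7 nuclei (45.7 to 99.0 CPM). In the CA3-like nuclei Ptgds was at 1.89 (0.40 to 3.67), on 5 and 18 UMIs. In the non-CA members it was at -0.29, where 1 Normal nucleus held 44 of 63 UMIs, and at 1.36 without the top nuclei. Nptx2 had 2.23 in the CA1-like and -1.49 in the other Slc17a7 nuclei (15.3 to 5.46 CPM), and in the 52 SAH nuclei that stayed CA1-like in finer clusters it was at -0.44.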

How the results depend on the processing

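No paired analysis was possible because each group is 1 library. Depth limits the fields. The CA3-like nuclei held 741426 and 721490 UMIs, and at 500 UMIs per gene 3 of their genes rose and 0 fell.

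Shares of passing nuclei that were members moved to 1.42% (Normal) and 0.641% (SAH) with 5 UMIs of the rule's genes, to 1.72% (SAH) with 1 Slc17a7 UMI, and to 2.75% and 2.12% with no Slc17a7 minimum. The alternatives on Slc17a7 were chosen after seeing the data, as were the sets without single nuclei, the CA-like members alone and the finer CA1-like clusters. With no Slc17a7 minimum CA1-like nuclei were 1.53% (Normal) and 0.667% (SAH) of passing nuclei, and 1 UMI gave 0.595% (SAH), while Normal CA2-like nuclei came to 0.399% and CA3-like to 0 because both fell in 1 cluster. Assigned by the list with more UMIs, CA1 made up 67.2% of Normal and 59.2% of SAH members and CA3 31.5% and 38.8%. At resolution 0.3 SAH CA3-like nuclei were 21.4%, and at 1.0 SAH non-CA members 54.6%.

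Genes that rose and fell over all members numbered 174 and 290. With 5 UMIs of the rule's genes 106 rose, and 32 fell in the CA3-like nuclei. Thinned to 2000 UMIs per nucleus, 21 rose and 26 fell, 8 and 6 in the CA1-like and 3 and 0 in the CA3-like nuclei. With 5000 to 30000 UMIs 16 fell in the CA3-like nuclei. Centred on the median 163 fell, and on genes of like length 271 rose and 70 fell, with 57 falls in the CA1-like and 32 in the CA3-like nuclei. As the mean of the CA1-like and CA3-like ratios 33 rose and 30 fell. At 50 UMIs per gene 353 rose and 604 fell, 146 and 350 in the CA1-like and 83 and 186 in the CA3-like nuclei, and at 500 UMIs 36 and 28, 9 and 8, and 3 and 0. In the CA-like members alone 111 rose.

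List medians moved for calcium and sodium channels to 0.14 when thinned, for GABA-A subunits to 0.40 when centred on the median and 0.36 as the mean of fields, for potassium and HCN channels to 0.23 as the mean of fields, and for the RNA binding list to -0.37 when centred on length. That of the late activity genes in the CA1-like nuclei moved from 0.61 to -0.41 in the finer clusters. The median of the chaperone list there moved from -0.11 to -0.37 without the nuclei with Hspa1a and Hspa1b, and to -0.87 in the finer clusters. Its sum turned from 0.62 to -0.57 and -0.83.

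Directions turned in the CA3-like nuclei for Cntn4 (1.52), Kirrel3 (2.44) and Tenm1 (0.47) with 5 UMIs of the rule's genes, for Cntn4 (1.63) and Kirrel3 (1.27) with 5000 to 30000 UMIs, for Clk4 (0.58) and Aplp1 (0.26) when thinned, and for Kirrel3 (1.31) without the top nucleus. In the CA1-like nuclei they turned for Dpp10 (-0.057) with the highest Scrublet scores removed, for Hsph1 (-0.34) without the nuclei with Hspa1a and Hspa1b, and for Nptx2 (-0.44), Sorcs1 (-0.42) and Hsph1 (-1.24) in the finer clusters. The cause was not tested.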
